A study of Rattus norvegicus with 48 samples.

Results

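The comparison described here is that of socially enriched with non-enriched rats in the amygdala, pooled over prenatal ethanol and saline exposure. It rests on 24 amygdala small RNA libraries, 12 from socially enriched and 12 from non-enriched rats, out of 48 libraries in the series, the other 24 being from ventral striatum of the same rats. The libraries were chosen by their labels for brain region and housing, and no measured value entered the choice of libraries. The comparison itself and the lists of miRNAs read below were chosen with earlier results of these data known. All rats were Long Evans animals killed at 42 days of age. Their mothers had been injected with ethanol or saline on gestational day 12. From weaning onwards a rat lived either with littermates of its own sex (non-enriched) or with unfamiliar rats of the same age and sex born to an untreated mother (socially enriched). Each housing group held 6 libraries from ethanol-exposed and 6 from saline-exposed rats, and in each of these there were 3 of females (named F1, F2 and F3) and as many of males (named M1, M2 and M3). Every library was a pool of RNA from 3 rats of the same sex, exposure and housing, so the spread between libraries is a spread between pools and not between single animals. All animals, enriched or not, had gone through a social interaction test before the tissue was taken, and the whole amygdala was dissected, without separation of its nuclei or cell types.

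microRNAs (miRNAs) are short RNAs cut from hairpin precursors. Each is loaded into a silencing complex and lowers the output of mRNAs that pair with its seed, the bases 2 to 8 counted from the 5′ end, so miRNAs that share a seed share many predicted targets. The amygdala is a group of nuclei in the temporal lobe that takes part in fear, emotional learning and social behavior. A large imprinted domain, named after its genes Dlk1 and Dio3, codes for a long series of miRNAs that are made from the maternal chromosome, are abundant in brain and include activity-dependent regulators of dendrites such as those around miR-134.

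The mature sequences of the miRNAs on which the comparison turned are given here, 5′ to 3′ with the seed in capitals. They were taken from RefSeq for rat (build GRCr8), in which 46 of 48 mature miRNAs, named by the rule or added for their p, had an entry. The first set had the smallest unadjusted p-values among miRNAs with a mean of at least 10 RPM (reads per 1000000) in the amygdala.
miR-3068-5p: uUGGAGUUcaugcaaguucuaacca
miR-493-5p: uUGUACAUgguaggcuuucauu
miR-667-3p: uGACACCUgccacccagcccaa
miR-30c-5p: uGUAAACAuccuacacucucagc
miR-199a-3p: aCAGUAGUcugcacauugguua
miR-15b-5p: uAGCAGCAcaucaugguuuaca
miR-376b-5p: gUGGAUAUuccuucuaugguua
These lie at chr6:112811918-112811942 (minus strand, miR-3068-5p), chr6:134314744-134314765 (plus strand, miR-493-5p), chr6:134555392-134555413 (plus strand, miR-667-3p), chr13:77116294-77116315 (plus strand, miR-199a-3p), chr2:155555197-155555218 (plus strand, miR-15b-5p) and chr6:134558876-134558897 (plus strand, miR-376b-5p), while miR-30c-5p is made from 2 genomic copies. Their 7 seeds all differ.

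A second set is shown because its members share a seed or a hairpin with those above. The seed of miR-30c-5p is that of miR-30a-5p, and the passenger strands of both miR-30c hairpins have a seed of their own in common.
miR-30a-5p: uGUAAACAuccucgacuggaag
miR-30c-1-3p: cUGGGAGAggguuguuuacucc
miR-30c-2-3p: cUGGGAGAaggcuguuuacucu
miR-3068-3p: gGUGAAUUgcaguacuccaaca
The last set has members of the imprinted domain and of the choroid plexus list, whose levels are described further on.
miR-127-3p: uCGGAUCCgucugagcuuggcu
miR-433-3p: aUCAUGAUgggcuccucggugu
miR-410-3p: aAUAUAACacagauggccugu
miR-211-5p: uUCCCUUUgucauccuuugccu
miR-34c-5p: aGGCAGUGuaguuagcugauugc
Of these, miR-433-3p lies at chr6:134327421-134327442, miR-127-3p at chr6:134328510-134328531 and miR-410-3p at chr6:134579808-134579828, all on the plus strand, in 1 stretch of chromosome 6 with miR-493-5p, miR-667-3p and miR-376b-5p. The seed of miR-211-5p is also that of miR-204-5p, and the seed of miR-34c-5p is shared by miR-34a-5p, miR-34b-5p and miR-449a-5p.

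The deposited values are RPM for mature and precursor names, and each of these kinds adds up to 1000000 in a library. Short RNAs were gel-purified before sequencing, so a precursor name counts short reads that match a hairpin. These can be reads of its mature arms, so a precursor name and its arms are not separate measures. Nor does a precursor name give the level of uncut precursor RNA. From the smallest step between values, mature reads per amygdala library came to 363135 in the shallowest and 1287697 in the deepest, and the medians were 922442 for enriched and 809357 for non-enriched libraries. In the shallowest library 1 mature read was worth 2.75 RPM and in the deepest 0.777 RPM, so that 3 reads were between 2.33 and 8.26 RPM. In the text no fold change is given where both groups averaged 3 reads or fewer. These reads are PCR products, and this floor covers counting error only. Of 1063 names, 910 (498 of them mature, the rest precursors) had a value above 0 in 6 libraries or more and entered the tests. The 10 most abundant mature miRNAs held 57.06% to 61.04% of the mature RPM of an enriched library and 50.84% to 62.65% of that of a non-enriched library.

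No miRNA passed the test for a difference between enriched and non-enriched amygdala once p-values were adjusted for the number of names tested. With limma on log2(RPM + 1), 0 of 910 names had a Benjamini-Hochberg adjusted p under 0.05 (smallest adjusted p = 1), and 28 names (3.08%) had an unadjusted p under 0.05. Of the 28, 9 (0.989%) were higher and 19 (2.09%) were lower in enriched rats. Exchanging housing labels within sex and prenatal exposure in all 160000 ways, a two-sided exact permutation test, gave 19 names (2.09%) with an unadjusted p under 0.05, and its smallest p was 0.00824, for miR-3084d. For 0 of the 910 names did the 12 enriched values lie wholly apart from the 12 non-enriched values. The log2 fold change, enriched over non-enriched, was positive for 520 names and negative for 386, with a median of 0.02. The plot of fold change against level shows that 18 of the 28 names lay under 10 RPM, where a value stands for few reads.

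**Figure D1:**
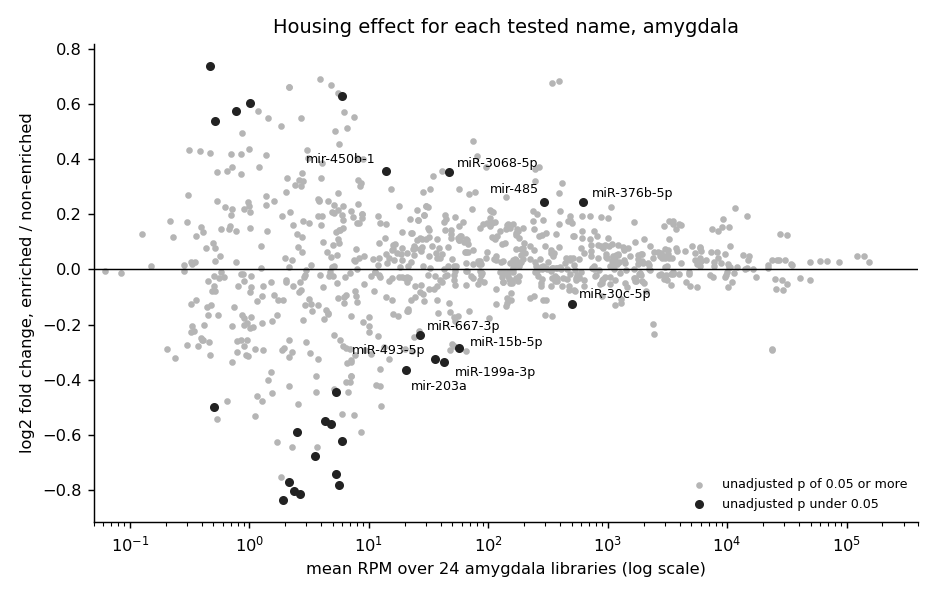
Log2 fold change (enriched over non-enriched, averaged over sex and prenatal exposure) of each of 910 tested names against its mean RPM over 24 amygdala libraries, on a log axis. The 28 names with an unadjusted limma p under 0.05 are black, and the 10 of them at 10 RPM or more are named. The spread narrows with level, and no point has an adjusted p under 0.05.

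The size of difference that these libraries leave possible depended on the level of the miRNA. Among the 176 names with a mean of at least 1000 RPM, the 95% confidence interval of the log2 fold change reached a median of 0.20 to either side of the estimate, a factor of 1.15, and for 168 of them the whole interval lay within a 1.5-fold difference in either direction. None of these 176 names had an unadjusted p under 0.05, and their largest log2 fold change was 0.29 in size. Between 100 and 1000 RPM the interval lay within 1.5-fold for 89.4% of 208 names, and between 10 and 100 RPM for 65.2% of 198. Under 10 RPM it did so for 16.8% of 328, and for these names differences of 2-fold and more were often not detectable at this depth. Over all 910 names, the interval lay within 1.5-fold for 538 (59.1%) and within 2-fold for 766 (84.2%). The shares under 10 RPM and over all names include names near 0 RPM, where log2(RPM + 1) compresses ratios and narrows the interval. mir-3586, at a mean of 0.285 RPM, had an SE of 0.018. For such names the interval does not bound the ratio of RPM.

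**Figure D2:**
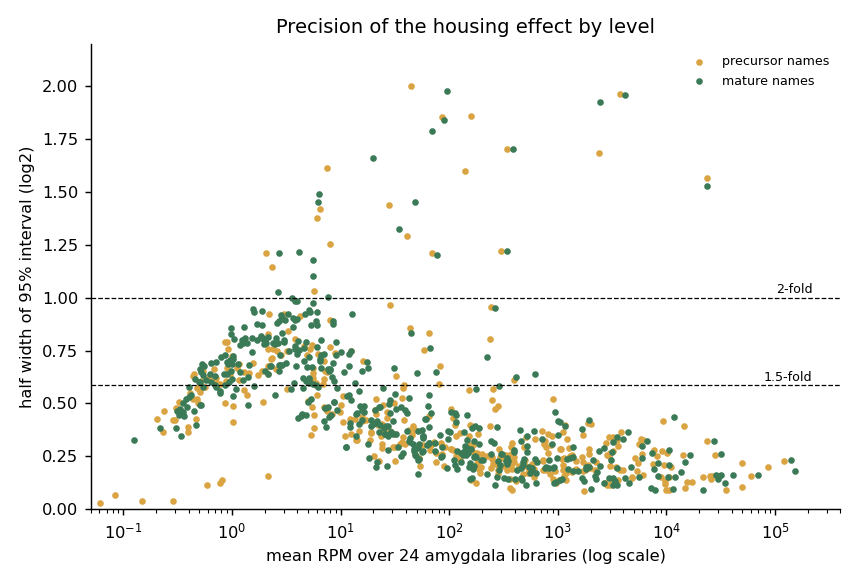
Distance from the estimate to the end of the 95% interval of the housing effect, in log2 units, against mean RPM over 24 amygdala libraries (log axis), for 498 mature names and the remaining precursor names, with dashed lines at 1.5- and 2-fold. Most names above 1000 RPM lie well under the 1.5-fold line, while a group of abundant names with wide intervals, miR-204 among them, lies above the 1.5-fold line.

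The most abundant miRNAs of the amygdala were close in level between the housing groups. miR-181a-5p, a brain-rich miRNA that acts on AMPA receptor subunits, ranged from 112316 to 199524 RPM in enriched (median 152840) and from 118599 to 211478 RPM in non-enriched libraries (median 149517). Its log2 fold change was 0.03 (95% interval −0.16 to 0.21). miR-127-3p, made from the transcript antisense to the imprinted gene Rtl1, averaged 142630 ± 22375 RPM (SD, n = 12) in enriched and 139107 ± 28043 RPM in non-enriched libraries. Both ranges overlapped almost completely. The other 8 of the 10 most abundant mature miRNAs (miR-26a-5p, miR-30a-5p, miR-191a-5p, miR-146b-5p, miR-9a-5p, miR-143-3p, miR-27b-3p and miR-22-3p) had log2 fold changes between −0.07 and 0.13, the last for miR-146b-5p, a miRNA of inflammatory signaling (interval −0.13 to 0.38). miR-9a-5p, which acts in neural progenitors and neurons, averaged 31349 ± 3008 RPM in enriched and 32721 ± 4865 RPM in non-enriched libraries (SD, n = 12).

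At 10 RPM or more, 10 names had an unadjusted p under 0.05, and each of them had an adjusted p of 1 by limma. Since they were picked from this same comparison for their p, their values are a description. Of the names higher in enriched rats, miR-3068-5p had the smallest p. It lay between 36.1 and 76.2 RPM (median 51.8) in enriched and between 26.9 and 58.2 RPM (median 38.4) in non-enriched libraries. The groups overlapped, but 11 of 12 enriched libraries were above the non-enriched median. The means were 52.9 ± 10.9 and 41.7 ± 10.9 RPM (SD, n = 12), a log2 fold change of 0.35 (SE 0.14, unadjusted limma p = 0.0184). In saline-exposed rats the log2 fold change was 0.16 and in ethanol-exposed rats 0.55. The other arm of the same hairpin, miR-3068-3p, had a log2 fold change of −0.07 (SE 0.09) and the precursor name mir-3068 one of −0.01 (SE 0.07). The difference between the arms was not tested.

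The other names higher in enriched rats with an unadjusted p under 0.05 at this level were mir-485, miR-376b-5p and mir-450b-1. The precursor mir-485, of a hairpin in the imprinted domain whose products act on presynaptic proteins, lay between 226 and 430 RPM (median 319) in enriched and between 162 and 355 RPM (median 272) in non-enriched libraries, a log2 fold change of 0.25 (SE 0.12). This was 0.46 in females and 0.04 in males, so near 0 in value in 1 sex. miR-376b-5p, of the same domain, had medians of 613 and 579 RPM, with 11 of 12 enriched libraries above the non-enriched median, and a log2 fold change of 0.24 (SE 0.11), which was 0.04 in saline-exposed and 0.45 in ethanol-exposed rats. The groups overlapped in both cases, and the exact permutation p was 0.0533 for mir-485 and 0.0499 for miR-376b-5p. mir-450b-1, of an X-linked cluster, averaged 15.9 ± 5.70 RPM in enriched and 11.8 ± 2.84 RPM in non-enriched libraries (SD, n = 12). The log2 fold change of mir-450b-1 was 0.73 in saline-exposed and −0.01 in ethanol-exposed rats. mir-450b-1, miR-376b-5p and miR-15b-5p were not named by the rule and were added after their values were seen.

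Of the mature names lower in enriched rats at this level, miR-493-5p, from the chromosome 6 stretch of the imprinted domain, had the smallest p. It lay between 22.1 and 42.5 RPM (median 31.9) in enriched and between 27.1 and 56.6 RPM (median 42.5) in non-enriched libraries. The groups overlapped, yet all 12 enriched libraries were below the median of the non-enriched ones. The means were 31.6 ± 5.81 and 40.1 ± 8.34 RPM (SD, n = 12), a log2 fold change of −0.33 (SE 0.12, unadjusted limma p = 0.0146, two-sided exact permutation p = 0.0141). In saline-exposed rats the log2 fold change was −0.54 and in ethanol-exposed rats −0.11. The opposite arm, miR-493-3p, averaged 3.52 RPM, within the range of 3 reads, and the precursor mir-493 had a log2 fold change of −0.19 (SE 0.11).

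The precursor mir-203a, of a miRNA best known from skin, was between 9.55 and 27.0 RPM (median 17.8) in enriched and between 12.6 and 34.5 RPM (median 23.5) in non-enriched libraries. The groups overlapped, and 10 of 12 enriched libraries were below the non-enriched median (log2 fold change −0.36, SE 0.12, two-sided exact permutation p = 0.0136). miR-30c-5p was between 409.4 and 537 RPM (median 490) in enriched and between 438 and 593 RPM (median 532) in non-enriched libraries. Its log2 fold change was small, −0.12 (SE 0.05), and was −0.13 in saline- and −0.12 in ethanol-exposed rats. The opposite strands with the seed shown above were also lower in value in every stratum of sex and exposure, with log2 fold changes of −0.17 (SE 0.11) for miR-30c-1-3p and −0.15 (SE 0.13) for miR-30c-2-3p, while the precursor names mir-30c-1 and mir-30c-2 had log2 fold changes of −0.01 and −0.04.

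The remaining 3 miRNAs completed the lower names at this level. miR-667-3p, of the imprinted domain, averaged 24.3 ± 4.87 and 28.97 ± 5.97 RPM (SD, n = 12) in enriched and non-enriched libraries. miR-199a-3p, a miRNA of mesenchymal and vascular cells, lay between 25.4 and 47.8 RPM in enriched and between 28.2 and 81.9 RPM in non-enriched libraries, and all 12 enriched libraries were below the non-enriched median. miR-15b-5p, which shares its seed with miR-16-5p and miR-195-5p and restrains cell cycle genes, averaged 51.9 ± 12.8 and 62.9 ± 14.05 RPM (SD, n = 12). The 3 log2 fold changes were −0.24, −0.33 and −0.29. In females and males they were 0.04 and −0.52 for miR-667-3p, −0.62 and −0.04 for miR-199a-3p, and −0.59 and 0.02 for miR-15b-5p, so that each was near 0 in value in 1 sex. For miR-667-3p they were −0.43 in saline-exposed and −0.04 in ethanol-exposed rats. Whether the sexes or exposures differed in these names did not pass the adjusted test.

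**Figure D3:**
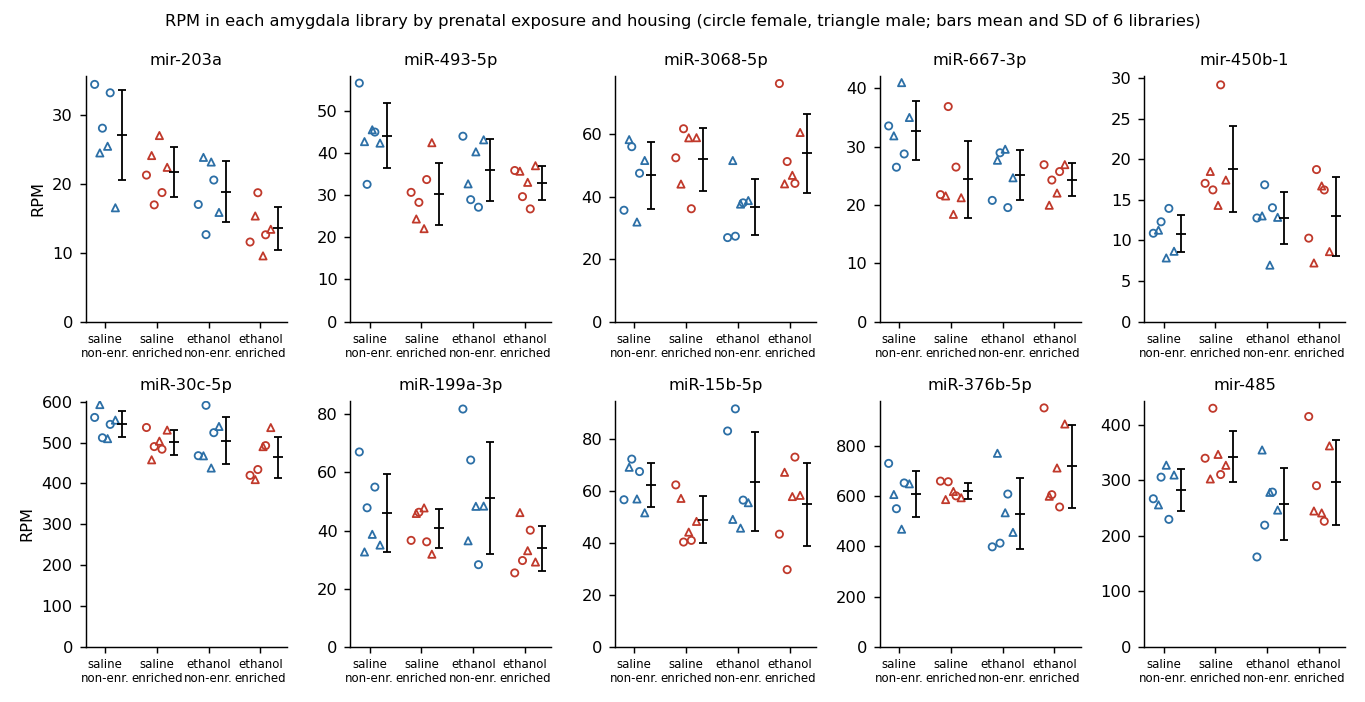
RPM of the 10 names with a mean of at least 10 RPM and an unadjusted limma p under 0.05 in each of 24 amygdala libraries, by prenatal exposure and housing (blue non-enriched, red enriched; circles female, triangles male; bars mean and SD of 6 libraries). In every panel the enriched and non-enriched libraries overlap, and in some the means are apart in 1 exposure only, as for mir-450b-1 and miR-667-3p (saline) and miR-376b-5p (ethanol).

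The sign in each stratum was looked at as a description, since the strata make up the same comparison. The housing effect had the same sign in both exposures for 43.96% of names and in both sexes for 36.9%. In 69 of 910 names (7.58%) the enriched minus non-enriched difference had the same sign in females and males of both exposures, 42 higher and 27 lower, and at 10 RPM or more these were 30 and 8. Among the 12 of them with the smallest p in the higher direction were 6 names of the imprinted domain, the precursors mir-381, mir-376b, mir-382 and mir-433 and the mature miR-433-3p and miR-668. The domain's lists, from miR-379 to miR-410 and antisense to Rtl1, held 82 and 23 of the 910 names tested. At 10 RPM or more, they held 65 and 22 of 582. mir-433 and miR-433-3p come from the same hairpin. The log2 fold changes of the 6 names lay between 0.20 and 0.35 in females and between 0.03 and 0.19 in males. The precursor name mir-381, of a hairpin whose miRNA regulates dendrite growth, averaged 428 ± 80.9 and 369.3 ± 61.3 RPM (SD, n = 12). Its log2 fold change was 0.21 (SE 0.12). The mature names miR-381-3p and miR-381-5p averaged 0.258 and 0 RPM and were not tested, so the level of the mature miRNA is not known from these values. miR-874-3p averaged 46.1 ± 13.3 and 35.3 ± 9.30 RPM, a log2 fold change of 0.36 (SE 0.18), with 9 of 12 enriched libraries above the non-enriched median. miR-652-3p, miR-330-3p and miR-125b-2-3p had log2 fold changes of 0.46 (SE 0.31), 0.22 (SE 0.13) and 0.11 (SE 0.07). In females and males these were, in that order, 0.52 and 0.41, 0.38 and 0.05, and 0.14 and 0.08. Without ethanol-exposed non-enriched F1, the pooled log2 fold change of miR-652-3p was 0.25. The lower direction had 8 such names, which beside miR-493-5p and the 3 mature miR-30c strands were miR-17-5p, mir-17-2, miR-3068-3p and miR-3586-3p, with log2 fold changes between −0.05 and −0.30. None had an adjusted p under 0.05 by limma.

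Most names in the lists of the imprinted domain, from miR-379 to miR-410 and antisense to Rtl1, had a positive value. miR-493, from the same stretch of chromosome 6, is in neither list. Its names miR-493-5p, miR-493-3p and mir-493 were all lower in value, with log2 fold changes of −0.33 for miR-493-5p and −0.19 for mir-493. Of 82 tested names from miR-379 to miR-410, 65 were higher in value in enriched rats (520 of 910 over all names), with a median log2 fold change of 0.11 (0.02 over all names), and of 23 tested names antisense to Rtl1, 22 were higher in value, with a median of 0.06. Only 3 higher and 1 lower of the 82, and none of the 23, had an unadjusted p under 0.05 (background 3.08%), and 0 had an adjusted p under 0.05 by limma. miR-410-3p, the most abundant member from miR-379 to miR-410, was between 8115 and 16052 RPM (median 10653) in enriched and between 6337 and 13607 RPM (median 9759) in non-enriched libraries (log2 fold change 0.15, SE 0.13). miR-433-3p, of the Rtl1 antisense transcript, averaged 517 ± 108 and 454 ± 82.6 RPM (SD, n = 12), a log2 fold change of 0.18 (SE 0.11). Members of a cluster are made from shared transcripts, so their values are not independent of each other.

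The libraries of both housing groups overlapped widely in the level of this domain. Taking for each library the median deviation of the 65 members from miR-379 to miR-410 with a mean of at least 10 RPM from their mean over 24 libraries, enriched libraries lay between −0.27 and 0.49 and non-enriched libraries between −0.54 and 0.39, on the log2 scale, and the medians of the groups were 0.01 and 0.02. The lowest were ethanol-exposed non-enriched F2 (−0.54) and F1 (−0.53), which were also lowest in the median deviation over all names (−0.25 and −0.17), and the highest was ethanol-exposed enriched F1 (0.49). In strata, the median log2 fold change of the 82 names was 0.34 in ethanol-exposed females, 0.17 in saline-exposed females, 0.03 in ethanol-exposed males and −0.05 in saline-exposed males. Without ethanol-exposed enriched F1, 58 of 82 and 15 of 23 names were positive, with medians of 0.06 and 0.01. The Rtl1 antisense median was lower, too, without ethanol-exposed non-enriched F2 (0.02), saline-exposed enriched F2 (0.03), ethanol-exposed non-enriched M3 (0.04) or ethanol-exposed enriched M3 (0.04), and it was 0.11 without ethanol-exposed non-enriched F3 and 0.10 without ethanol-exposed enriched F3 or non-enriched M1. Rescaling the libraries by median-ratio factors gave medians of 0.08 and 0.03, and a median over all names of 0.00 in place of 0.02.

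A choroid plexus list moved with these libraries. The choroid plexus, the epithelium that makes cerebrospinal fluid, lies next to the amygdala in the temporal horn of the ventricle, and miR-204-5p, miR-211-5p, miR-34b, miR-34c, miR-449a and miR-1298 are among its markers. The summed RPM of the 12 mature names of the list ran from 3891 to 46820 (median 18325) in enriched and from 3679 to 145598 (median 17927) in non-enriched libraries. The highest were ethanol-exposed non-enriched F2 with 145598 RPM and M3 with 129443 RPM, and next came ethanol-exposed non-enriched F1 with 55426 RPM, so both libraries lowest in the imprinted domain were among those highest in this list. The precursor mir-204 alone spanned 2896 to 122490 RPM. In a bulk sample more cells of a type and more RNA per cell cannot be told apart. All 20 tested members had an unadjusted p of 0.05 or more. Their median log2 fold change was −0.12, and it was 0.61 in saline-exposed and −0.64 in ethanol-exposed rats, and −1.13 in females and 0.82 in males. For mir-204 the interval was −1.86 to 1.28, which holds differences of 2-fold in either direction.

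The imprinted domain was therefore read again without the 2 libraries highest in the choroid plexus list, an alternative chosen after the data were seen. Then 51 of 82 names from miR-379 to miR-410 were positive, with a median of 0.04, and 10 of 23 Rtl1 antisense names, with a median of 0.00, while 460 of all 900 names tested were positive and their median was 0.00. With the log2 of the summed choroid plexus RPM as a covariate in place of this, 62 of 82 and 21 of 23 were positive, with medians of 0.10 and 0.04. Over the whole table, 28 names had an unadjusted p under 0.05 with all libraries, and 21 names without these libraries and 26 with the covariate did so, while 0 had an adjusted p under 0.05 by limma in each.

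**Figure D4:**
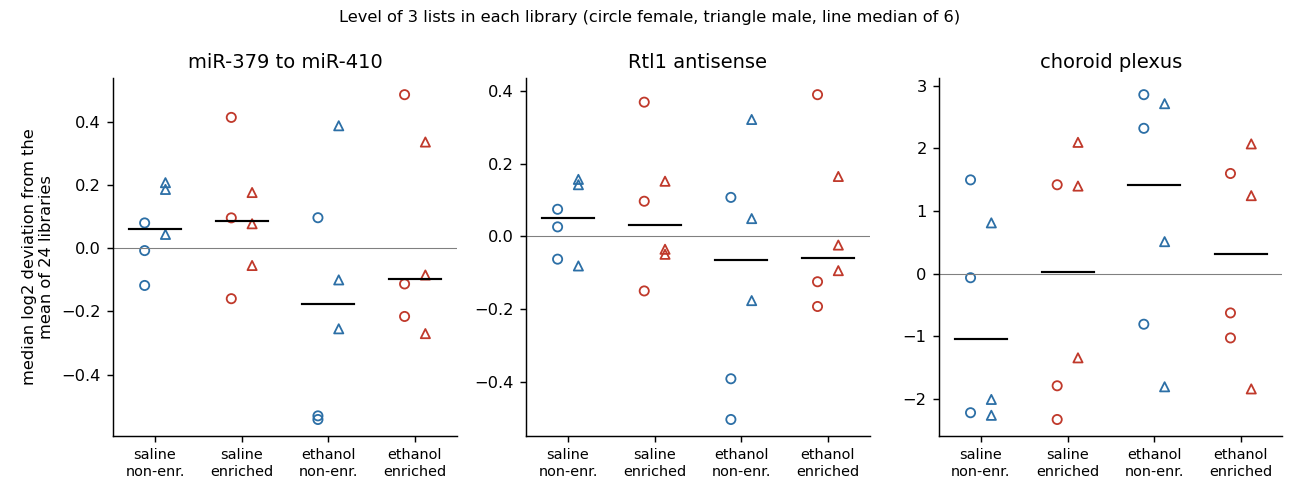
Median log2 deviation of the members of 3 lists from their mean over 24 amygdala libraries, for each library by prenatal exposure and housing (blue non-enriched, red enriched; circles female, triangles male; line median of 6 libraries). The choroid plexus list spans about 5 log2 units, and the 2 ethanol-exposed non-enriched females lowest in both imprinted lists are among the 3 libraries highest in it.

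In the other cell type lists no name had an adjusted p under 0.05 by limma, and no list was tested as a set. An unadjusted p under 0.05 was found for 1 of 10 oligodendrocyte, 2 of 16 microglia and immune, 1 of 13 vascular and mesenchymal and 2 of 8 muscle names. These shares are above the background of 3.08%, but each rests on 1 or 2 names. Among 15 epithelial and sensory and 5 red cell names there were 0. Of 10 oligodendrocyte names (miR-219 and miR-338, which drive differentiation of these myelin-forming cells), 4 were positive, with a median log2 fold change of −0.04, and 1 lower name, miR-219a-1-3p, had an unadjusted p under 0.05. Its most abundant member, miR-338-3p, averaged 6771 ± 2499 and 6589 ± 2217 RPM (SD, n = 12). The summed mature RPM of this list ran from 5539 to 16082 in enriched and from 4869 to 14421 in non-enriched libraries. Of 16 microglia and immune names 5 were positive (median −0.05), and 2 were lower with an unadjusted p under 0.05, the precursor mir-155, a mediator of innate immune responses (4.40 ± 1.64 and 6.19 ± 1.66 RPM, SD, n = 12, log2 fold change −0.44), and miR-142-3p at a mean of 2.51 RPM, within the range of 3 reads. The abundant immune name miR-146b-5p, given above, was higher in value in enriched rats. Of 13 vascular and mesenchymal names 5 were positive (median −0.01), and miR-199a-3p was the only one with an unadjusted p under 0.05. miR-143-3p, of smooth muscle, averaged 30632 ± 3104 and 30035 ± 4002 RPM.

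Epithelial and sensory names (15 tested, 5 positive, median −0.06), red cell names (5 tested, 3 positive, median 0.04) and muscle names (8 tested, 2 positive, median −0.16) were mostly rare. miR-182, the most abundant epithelial and sensory name, ran from 75.4 to 803 RPM in enriched and from 68.4 to 889 RPM in non-enriched libraries. The red cell precursor mir-451 averaged 35.7 ± 16.5 and 38.4 ± 17.5 RPM (SD, n = 12), and the muscle precursor mir-133a 34.9 ± 11.3 and 41.0 ± 18.1 RPM. The 2 muscle names with an unadjusted p under 0.05 were miR-206-3p and mir-206, the precursor name of the same hairpin. Both were lower in value, with means of 1.46 and 1.33 RPM in enriched and 3.29 and 2.99 RPM in non-enriched libraries. These means lie within the range of 3 reads. The median miR-183-5p value was a small fraction of 1 read in both groups, and no fold change is given for it.

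**Figure D5:**
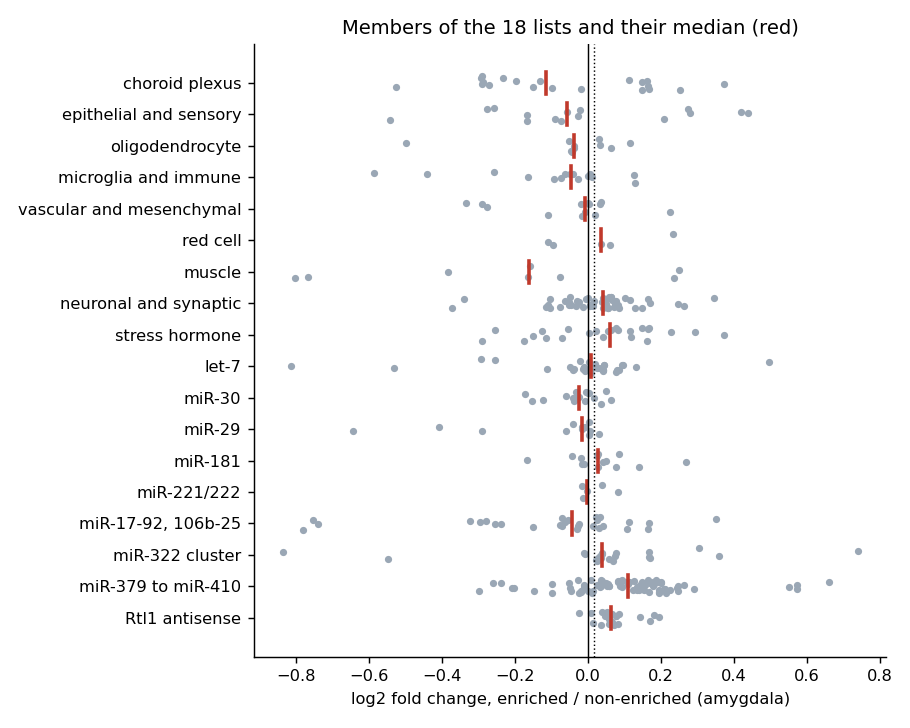
Log2 fold change (enriched over non-enriched) of the tested members of 18 lists, 1 point a name, with the list's median in red, the line at 0 and the dotted line at the median of all 910 names (0.02). The lists lie around 0, those from miR-379 to miR-410 and of Rtl1 antisense to the right of it (medians 0.11 and 0.06) and choroid plexus and muscle to the left (−0.12 and −0.16).

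miRNAs known from neurons, synapses and stress responses were near 0 as well. Of 49 neuronal and synaptic names, 31 were positive, with a median of 0.04, and mir-485 was the only one with an unadjusted p under 0.05. miR-124-3p, the neuronal miRNA that represses non-neuronal genes, averaged 2462 and 2380 RPM (log2 fold change 0.06, SE 0.10), and miR-132-3p, induced by CREB, 1978 and 1931 RPM (0.06, SE 0.20). Of 24 stress hormone names, chosen as regulators of the glucocorticoid and corticotropin pathways, 16 were positive, with a median of 0.06 and none with an unadjusted p under 0.05. miR-34a-5p, of a family that acts on a corticotropin releasing factor receptor, averaged 97.6 ± 35.4 and 106.1 ± 21.7 RPM (SD, n = 12, log2 fold change −0.17, SE 0.17). miR-34c-5p has the same seed but belongs to the choroid plexus list too, and it ran from 207 to 8726 RPM in enriched and from 150 to 13297 RPM in non-enriched libraries.

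Large families were examined as lists. let-7f-5p, of a family that restrains growth genes in mature cells, averaged 21869 ± 1479 and 21817 ± 1580 RPM (SD, n = 12), a log2 fold change of 0.00 (95% interval −0.09 to 0.09), and of 33 let-7 names 20 were positive, with a median of 0.01 and 1 lower name, let-7c-1-3p, with an unadjusted p under 0.05. Of 17 miR-30 names 6 were positive (median −0.03), and miR-30c-5p, among the negative ones, was the 1 name with an unadjusted p under 0.05. The precursor mir-30a averaged 48781 ± 3986 and 50053 ± 3107 RPM. Of 14 miR-181 names 9 were positive (median 0.03), of 12 miR-29 names 4 (median −0.02), and of 5 miR-221 and miR-222 names 2 (median 0.00). In none of these 3 families did a name have an unadjusted p under 0.05 for the pooled housing effect. The median of the miR-221 and miR-222 names was −0.26 in saline-exposed and 0.23 in ethanol-exposed rats. In each sex, 0 of 5 were positive in saline-exposed and 5 of 5 in ethanol-exposed rats. None passed the adjusted test for housing by prenatal exposure. Of 28 names of the miR-17-92 and miR-106b-25 clusters, which promote proliferation, 11 were positive (median −0.04). The 2 of these with an unadjusted p under 0.05 were miR-19a-3p and mir-19a, the precursor name of the same hairpin, both lower in value. miR-19b-3p, with the same seed as miR-19a-3p, had a log2 fold change of −0.05 (SE 0.11). Of 21 names of the X-linked cluster of miR-322, miR-503, miR-351, miR-542 and miR-450, 17 were positive (median 0.04), beside 520 of 910 over all names. In this cluster 4 names had an unadjusted p under 0.05 (background 3.08%), of which mir-450b-1 and miR-351-3p were higher and miR-503-3p and mir-503-2 lower in enriched rats, all but mir-450b-1 at means under 10 RPM and miR-351-3p at 0 in every non-enriched library. Its most abundant member, miR-351-5p, averaged 4144 ± 370 and 4092 ± 518 RPM.

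The smallest unadjusted p of all was that of a rare name. This name, miR-351-3p, was listed at 0 in all 12 non-enriched libraries and at 1 to 3 reads in 6 of the 12 enriched ones, at most 2.81 RPM, so both groups were at or under 3 reads. It entered the tests only through the enriched libraries and its p carries no weight, but it is counted among the 9 higher names above. No other tested name was at 0 in every library of a group. Next by p among names under 10 RPM was miR-19a-3p, which lay between 0 and 6.17 RPM (median 3.61) in enriched and between 2.28 and 14.7 RPM (median 6.34) in non-enriched libraries. All 12 enriched libraries were below the non-enriched median, and the groups overlapped. Its log2 fold change was −0.74 (SE 0.25), on the log2(RPM + 1) scale, which understates ratios of such low values, and it was −1.55 in females and 0.07 in males. let-7c-1-3p (1.94 and 3.37 RPM), miR-29c-5p (5.90 and 8.15 RPM) and miR-219a-1-3p (0.218 and 0.787 RPM) were lower in value in enriched rats, miR-144-5p (5.69 and 4.58 RPM) and miR-181d-3p (0.470 and 0.141 RPM) higher, and all of these means lie within the range of a few reads.

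Pooling the prenatal groups assumes that housing acts alike in both, and that was tested directly. For housing by prenatal exposure, 0 of 910 names had an adjusted p under 0.05 by limma (smallest adjusted p = 0.957), and 35 names (3.85%) had an unadjusted p under 0.05, 23 (2.53%) with the more positive fold change in ethanol-exposed and 12 (1.32%) in saline-exposed rats. Within saline-exposed rats 24 names (2.64%) and within ethanol-exposed rats 24 names (2.64%) had an unadjusted p under 0.05, and no name was in both sets. Of the 24 in saline-exposed rats 9 had the same sign in ethanol-exposed rats, and of the 24 in ethanol-exposed rats 15 had the same sign in saline-exposed rats. Over all 910 names 43.96% had the same sign in both, and the correlation of both effects across names, which are not independent and share their libraries, was −0.20.

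At 10 RPM or more, miR-872-3p and mir-299a had the smallest p for this difference. miR-872-3p lay between 92.6 and 132.03 RPM (median 113) in enriched and between 75.5 and 99.4 RPM (median 90.3) in non-enriched saline-exposed rats. In ethanol-exposed rats it lay between 64.7 and 106.5 RPM (median 76.6) in enriched and between 69.1 and 129.4 RPM (median 97.5) in non-enriched libraries. The values were higher in enriched saline-exposed and lower in enriched ethanol-exposed rats, with overlap in each, and the effects differed by −0.62 on the log2 scale (SE 0.19, limma adjusted p = 0.957). The precursor mir-299a, of the imprinted domain, had the reverse order, with means of 28.1 ± 5.32 and 34.8 ± 6.59 RPM in enriched and non-enriched saline-exposed rats and of 33.6 ± 6.24 and 23.8 ± 7.28 RPM in ethanol-exposed rats (SD, n = 6). For mir-299a the effects differed by 0.82 (SE 0.28, limma adjusted p = 0.957). Both of these names had pooled log2 fold changes close to 0, at 0.04 and 0.11.

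For housing by sex, 0 of 910 names had an adjusted p under 0.05 by limma (smallest adjusted p = 0.800) and 46 names (5.05%) had an unadjusted p under 0.05. In females 40 names (4.4%) and in males 23 (2.53%) had an unadjusted p under 0.05, and 3 names were in both sets, mir-195, miR-339-5p and miR-483-3p, none with the same sign. Over all names 36.9% had the same sign in both sexes, and the correlation across names was −0.33. The precursor mir-195 lay between 190 and 387 RPM (median 250) in enriched and between 275 and 372 RPM (median 319) in non-enriched females. In males it lay between 245 and 380 RPM (median 280) in enriched and between 197 and 259 RPM (median 239) in non-enriched libraries. Its effects in males and females differed by 0.60 on the log2 scale (SE 0.17, limma adjusted p = 0.800), and its pooled log2 fold change was 0.01. miR-184 had means of 20.3 ± 8.64 and 37.3 ± 17.7 RPM in enriched and non-enriched females and of 27.0 ± 6.75 and 20.2 ± 4.57 RPM in males (SD, n = 6), effects that differed by 1.22 (SE 0.37). The choroid plexus list differed in sign between the sexes as well, as given above, and with its level as a covariate 21 names in place of 46 had an unadjusted p under 0.05 for housing by sex. Its part in the values of single names was not tested.

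Set against ventral striatum of the same rats, the housing effect in amygdala was not found to differ for any miRNA, in a fit that did not match pools across regions. The SE and p-values for this difference therefore treat the libraries of both regions as independent, although they come from the same rats. Of 915 names tested in all 48 libraries, 0 had an adjusted p under 0.05 by limma for the difference between regions (smallest adjusted p = 1), and 22 (2.4%) had an unadjusted p under 0.05. In ventral striatum itself 27 names (2.95%) had an unadjusted p and 0 an adjusted p under 0.05. At 10 RPM or more, the smallest p for the difference were those of mir-203a, with log2 fold changes of −0.36 in amygdala and 0.11 in ventral striatum (difference −0.47, SE 0.18), and of miR-874-3p, with 0.36 and −0.16 (difference 0.52, SE 0.21). The names from miR-379 to miR-410 had a median log2 fold change of 0.01 in ventral striatum and those antisense to Rtl1 one of −0.01. miR-3068-5p and miR-493-5p had log2 fold changes of 0.05 and −0.12 there.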

How the data were processed

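Small RNA libraries of amygdala RNA pools were sequenced by the authors, who trimmed low-quality bases, aligned reads to Rn5 with Bowtie and quantified precursor and mature names of miRBase in Partek Flow. The deposited signal is RPM, scaled by the authors so that mature and precursor values each add up to 1000000 in a library. By the study's account its read counting could not separate near-identical members of a family, so values of such members are uncertain. Rows sharing a name were summed (1129 rows, 1063 names). The signal was not read as counts: 92.3% to 99.6% of low mature values were whole reads within 0.02 read, and 87.9% to 92.6% of precursor values.

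Names above 0 in at least 6 of 24 libraries were fitted as log2(RPM + 1) with limma 3.58.1 in R 4.3.3 (trended, two-sided), with 8 cells of sex, prenatal exposure and housing. The housing effect was the mean of the 4 enriched minus non-enriched differences, and housing by prenatal exposure, by sex and by region (48 libraries, above 0 in at least 12) were contrasts of them. P-values were adjusted by Benjamini-Hochberg across the tested names, and they measure the spread between pools. Single names were compared by an exact permutation test within the 4 strata in Python 3.11.15. The calculation was tested on simulated data.

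Named were names with an adjusted p under 0.05, the 12 higher and 12 lower with the smallest p among those of at least 10 RPM and 1 sign in all strata (8 were found in the lower direction), the 2 with the smallest p under 10 RPM, the 2 with the smallest p for each difference of effects, the most abundant and the smallest p of each of 18 lists, and the 10 most abundant. Names were added from the values as stated. The comparison, lists and members were chosen with earlier results of these data known. Libraries were sequenced in multiplexed sets. The labels do not place libraries in them, so sets were not modelled and their part was not tested. No 2 libraries of a cell agreed within sampling noise: squared differences were 2.84 to 17.0 times those of counting.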

Additional observations from a re-analysis of the deposited data

Results flagged for a closer look

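Of 296 groups of 6 libraries (1 prenatal exposure and housing, for each named miRNA and marker sum), 16 held a library far from the other 5 by Dixon's criterion, which chance alone gives for about 1 in 20 groups. Lower than the rest of their group were mir-381 in saline-exposed non-enriched F3 (297 RPM, others 380 to 423), miR-143-3p in saline-exposed enriched M3 (26430 RPM, others 32381 to 35559), miR-19a-3p in ethanol-exposed enriched F2 (0 RPM, others 2.75 to 6.17), mir-133a in saline-exposed non-enriched M3 (22.8 RPM), let-7c-1-3p in ethanol-exposed non-enriched F3 (1.09 RPM) and mir-450b-1 in ethanol-exposed non-enriched M2 (6.96 RPM, others 12.8 to 16.9). Higher than the rest were miR-433-3p in saline-exposed enriched F2 (728 RPM, others 433.4 to 523.9), miR-30c-2-3p in ethanol-exposed enriched M1 (65.1 RPM, others 37.7 to 45.3), mir-450b-1 in saline-exposed enriched F3 (29.2 RPM, others 14.3 to 18.5) and miR-338-3p in ethanol-exposed enriched F3 (13317 RPM, others 4920 to 5996).

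The same library, ethanol-exposed enriched F3, was apart in the summed oligodendrocyte names (16082 RPM, others 5792 to 7058), and saline-exposed enriched M3 in the summed vascular and mesenchymal names (29221 RPM, others 35470 to 39269), of which miR-143-3p is the main one. Values of 1 read or less were apart for miR-181d-3p in saline-exposed enriched M3 (0.965 RPM, others 0) and for miR-183-5p in saline-exposed non-enriched M2 (1.08 RPM), ethanol-exposed enriched F2 (0.0316 RPM) and saline-exposed enriched F3 (0.000305 RPM), the last 2 being fractions of a read.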

How the results depend on the processing

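For the housing effect, 0 names had an adjusted p under 0.05 in the 24 fits that left out 1 library and in the 14 other settings, with a smallest limma adjusted p between 0.444 and 1. The count at an unadjusted p under 0.05 (28) ran from 18 (without ethanol-exposed non-enriched F2) to 37 with libraries left out, was 8 with a mean of at least 10 RPM, and in the others stayed within 1.5 times. For housing by prenatal exposure (0 and 35) libraries left out gave 0 to 1 and 28 to 57. The 1 name was mir-802 without saline-exposed non-enriched M3 (adjusted p = 0.00743, limma), with a mean of 1.01 RPM. The highest counts, 37, 57, 102 for sex and 46 for region, all came without ethanol-exposed non-enriched F3 of the amygdala. A mean of at least 10 RPM gave 19 and mature names only 21. For housing by sex (46) the ranges were 0 to 0 and 30 to 102, with 30 at 10 RPM or more, 27 for mature names only and 21 with the choroid plexus covariate. It was 30 without saline-exposed non-enriched F3, 79 without ethanol-exposed enriched F3 and 80 without ethanol-exposed enriched M3. For housing by region (22) they were 0 to 0 and 11 to 46, with 7 and 13. Leaving out M3 of the ethanol-exposed non-enriched ventral striatum gave 11, with 14 and 13 without saline-exposed enriched F2 and M2 of amygdala. The cause was not tested, beyond the smaller number of names under both filters. Rows sharing a name kept apart, a minimum of 1 read in 6 libraries, the choroid plexus covariate and the fit without its 2 highest libraries were chosen after seeing the data.

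The replicate numbers were not taken as pairs. Over 84 same-numbered pairs of libraries, deviations had a median correlation of −0.0024, 38 were over 0.1, and 8 of 24 libraries correlated best with their own number. With the replicate number as a block, 23, 45, 46 and 21 names had an unadjusted p under 0.05 for housing and its difference by exposure, sex and region, and 0 an adjusted one.

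Of 67 named miRNAs, recomputed in 2496 values, 19 turned their sign in 82, and none reached an adjusted p under 0.05. Median-ratio rescaling turned mir-195 (−0.021), miR-181a-5p (−0.0033), let-7f-5p (−0.025), miR-351-5p (−0.0051) and miR-191a-5p (−0.010). Leaving out the 2 libraries highest in choroid plexus miRNAs turned mir-299a (−0.0077), mir-195 (−0.00022), mir-204 (0.30), miR-182 (0.16), miR-143-3p (−0.028), miR-181a-5p (−0.0038), miR-127-3p (−0.039) and miR-191a-5p (−0.0031). Depth as a covariate turned let-7f-5p (−0.00029), and unlogged RPM turned miR-34c-5p (−982 RPM). With single libraries left out the log2 ranges that crossed 0 were −0.011 to 0.10 (miR-872-3p), −0.038 to 0.052 (mir-195), −0.62 to 0.035 (mir-204), −0.44 to 0.052 (miR-182), −0.075 to 0.10 (miR-338-3p), −0.27 to 0.049 (mir-451), −8.3e-06 to 0.51 (miR-144-5p), −0.24 to 0.54 (miR-34c-5p), −0.015 to 0.018 (let-7f-5p), −0.053 to 0.029 (mir-29a), −0.026 to 0.078 (miR-181a-5p), −0.061 to 0.050 (mir-221), −0.021 to 0.053 (miR-351-5p), −0.011 to 0.10 (miR-127-3p), −0.00035 to 0.071 (miR-26a-5p), −0.065 to 0.0087 (miR-30a-5p) and −0.012 to 0.046 (miR-191a-5p). Among the names higher in value in all strata, those whose value moved by over 1.5 times without 1 library were miR-652-3p (0.25) and mir-652 (0.20) without ethanol-exposed non-enriched F1, miR-668 (0.093) without ethanol-exposed enriched F1 and miR-330-3p (0.15) without saline-exposed non-enriched M2. The median of the choroid plexus list ran from −0.38 to 0.20 with single libraries left out and was 0.36 without both highest. Depth limits the names under 10 RPM, where 3 reads can be 8.26 RPM.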

Other observations

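The names shared by a seed were looked at as groups among the mature miRNAs tested. Those with the miR-17-5p seed (4 names, miR-106b-5p, miR-17-5p, miR-20a-5p and miR-93-5p) had a median log2 fold change of −0.09, 1 of them positive. Those with the seed of miR-15b-5p and miR-16-5p (5 names) had a median of −0.04, 2 positive, and those with the seed of miR-34a-5p (4 names) 0.16, 3 positive. The 3 positive names of the latter seed, miR-34b-5p, miR-34c-5p and miR-449a-5p, belong to the choroid plexus list too. miR-34a-5p, which is not in that list, had a log2 fold change of −0.17. The let-7 seed (9 names) had a median of 0.01, 6 positive, and the seed of miR-1-3p and miR-206-3p (3 names) −0.17, 0 positive. None of these groups had more than 1 name with an unadjusted p under 0.05.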
